A study of Mus musculus with 12 samples.

Results

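The peaks described here were called in Nfib pulldowns, as candidate sites of Nfib binding, around the Myc family genes Mycl, Myc and Mycn. Nfib is the B member of the nuclear factor I transcription factors, and its binding was mapped by ChIP-seq (immunoprecipitated chromatin, then sequencing) in small cell lung cancer lines from mouse tumors. All 3 lines carry the genotype Trp53-/-;Rb1-/- and were grown as floating spheres. By the labels the level of Nfib is high in 16T and in KP1 and low in KP22. Each line had 2 input libraries and 2 libraries pulled down with an Nfib antibody. The members were chosen by position, as the peaks of the deposited KP1 and KP22 lists whose start lies in 1 of 3 windows (mm9) set around the genes. The windows were set with earlier results of these data known, among them very wide peaks near Mycl. The Mycl window ran from 122400000 to 122949999 on chromosome 4, the Myc window from 61550000 to 62100000 on chromosome 15, and the Mycn window from 12700000 to 13200000 on chromosome 12. They held 95 of the 24905 KP1 peaks and 32 of the 10120 KP22 peaks. The file labelled as the 16T list held 0 intervals, so 16T does not enter. Each line had 1 list without scores or reads per library, so the lines are compared as lists, with no replicate check and no test. With KP22 as the only low line, Nfib level and line cannot be told apart. Ranges in parentheses after a share or a ratio are exact 95% binomial (Clopper-Pearson) intervals; they count each peak as independent and cover only counting error.

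Mycl, Myc and Mycn encode related transcription factors (L-Myc, c-Myc and N-Myc) with a basic helix-loop-helix leucine zipper, which pair with Max, bind E-box sequences and drive genes of growth and proliferation. In small cell lung cancer a tumor often has extra copies of a single member of the family, and Mycl is the member most often gained in mouse tumors that lack Rb1 and Trp53. Nuclear factor I proteins bind DNA as dimers, to a pair of inverted TTGGC arms, and a single arm can be bound more weakly. A peak is a stretch where pulldown reads pile up over background, and its width is the length given to that stretch in the list. The narrowest width was 150 bases in the KP1 list, held by 2368 peaks, and 159 bases in the KP22 list, held by 793. Widths at these minimums may be a floor of the peak calling and not a measured length.

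In the RefSeq annotation of GRCm38.p6, Mycl lies between the protein-coding genes Mfsd2a and Trit1, Myc between A1bg and Gsdmc, and Mycn between Cyria and Ddx1. That build differs from mm9, so only the names and the order of the genes were used, and distances from peaks to start sites were not analysed here. RefSeq promoters of GRCm38.p6 (300 bases, 250 of them before the start site) were on hand for Mycl and Mycn and were searched on both strands for the arm TTGGC and for the full site, in which TTGGC is followed after a spacer of 5 bases by GCCAA, the same arm on the other strand. The arm was present in 46.7% of 32851 promoters and the full site in 0.0365%. The Mycl promoter had 0 arms. The Mycn promoter had 2 arms in the same orientation and 0 full sites. The stretch of it that holds both arms is shown because it is the only match of the nuclear factor I arm in these 2 promoters, with the arms in capitals. It lies on chromosome 12 from 12941991 to 12942026 (GRCm38.p6, minus strand), 190 to 155 bases before the start site.
Mycn promoter stretch: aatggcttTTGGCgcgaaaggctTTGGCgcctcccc
At least 2 arms were found in 14.4% of all promoters, and these letters do not show that Nfib was bound there. The mm9 sequence under the peaks was not analysed here.

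The Mycl window was dense in Nfib peaks in both lines, and the Myc and Mycn windows held far fewer. KP1 had 70 peaks in the Mycl window, 10 in the Myc window and 15 in the Mycn window. KP22 had 23, 5 and 4. Both lines therefore had most of their Myc family peaks around Mycl. As a share of its list, the Mycl window held 0.281% of KP1 peaks (0.219 to 0.355) and 0.227% of KP22 peaks (0.144 to 0.341). The Myc window held 0.0402% of KP1 peaks (0.0193 to 0.0738) and 0.0494% of KP22 peaks (0.0160 to 0.115). The Mycn window held 0.0602% of KP1 peaks (0.0337 to 0.0993) and 0.0395% of KP22 peaks (0.0108 to 0.101). In each line, the interval of the Mycl window did not overlap those of the Myc and Mycn windows, which overlapped each other. Since the windows were set with earlier results known, this is a description and not a test.

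The KP1 list was longer than the KP22 list by 2.46 times, and the Myc family windows did not depart from that beyond counting error. KP1 peaks outnumbered KP22 peaks by 3.04 times in the Mycl window, 2 times in the Myc window and 3.75 times in the Mycn window. The share of the KP1 list divided by that of the KP22 list was 1.24 around Mycl (0.763 to 2.08), 0.813 around Myc (0.253 to 3.03) and 1.52 around Mycn (0.485 to 6.31). All 3 intervals include 1, and those for Myc and Mycn are too wide to exclude a severalfold difference either way. In the central 50% of the Myc window the ratio was 0.488, which lies inside the interval of the whole window.

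**Figure D1:**
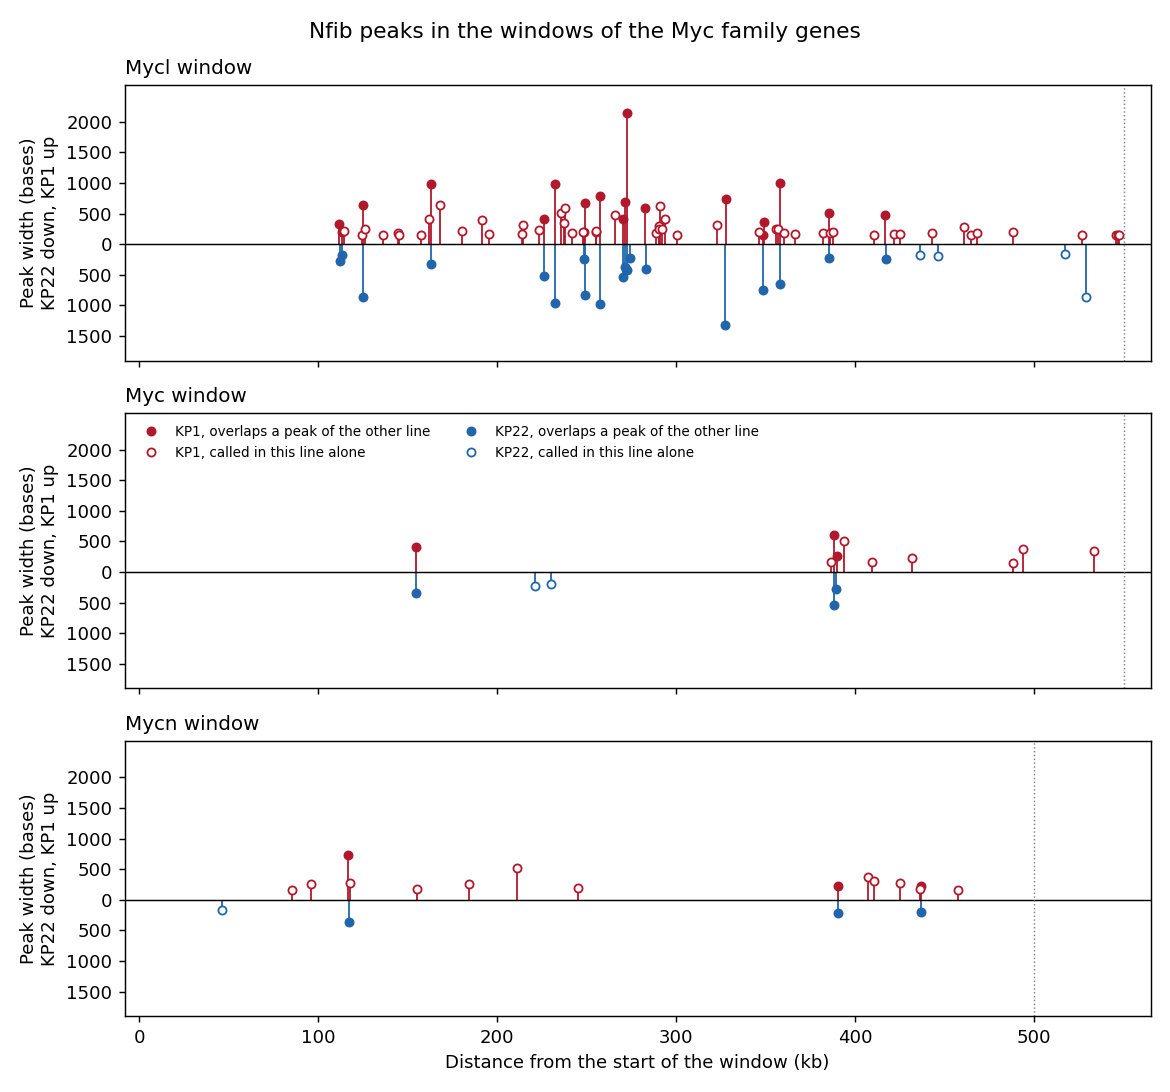
Each stem is an Nfib peak, placed by its distance from the start of the window in kb, with its width in bases as its height (KP1 up, KP22 down). Filled points overlap a peak of the other line, open points do not, and the dotted line marks the end of the window. The 70 KP1 and 23 KP22 peaks around Mycl begin more than 100 kb into the window, and the Myc and Mycn windows hold 10 and 15 KP1 peaks.

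Few stretches of the genome carried as many peaks as the Mycl window. That window was set with earlier results of these data known, so its place among other windows is a description and no independent support. Chromosomes 1 to 19 and X were divided into windows of the same length, and the other 4696 held a median of 4 KP1 peaks (quartiles 1 and 8) and 1 KP22 peak (quartiles 0 and 3). No other window reached the 70 KP1 peaks around Mycl, and the highest had 55. For KP22, 2 other windows held at least 23 peaks, 1 of them on chromosome 4, and the highest had 31. It follows from KP1 alone that no other window held as many peaks of both lines at once. When windows could begin at any peak, a choice made after seeing the data, KP1 had 71 peaks on chromosome 4 from 119406099 to 119956098, and KP22 had 31 on chromosome 4 from 126808479 to 127358478. The Myc window was closer to the bulk: 19.2% of other windows had at least its 10 KP1 peaks and 15.0% had at least its 5 KP22 peaks. Of the 5161 other windows as long as the Mycn window, 5.54% had at least 15 KP1 peaks and 19.2% had at least 4 KP22 peaks.

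**Figure D2:**
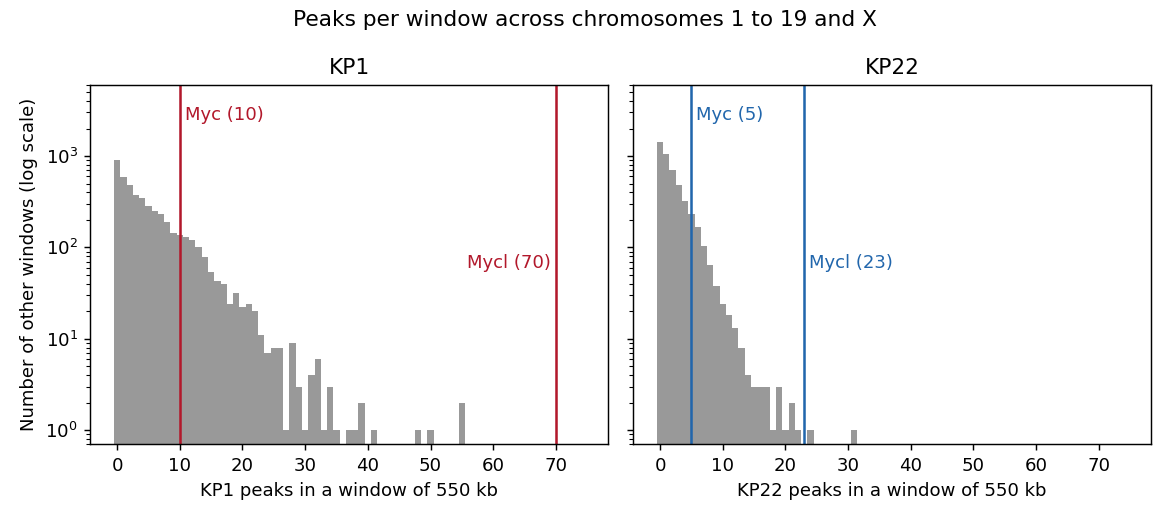
Histograms of the number of KP1 peaks (left) and KP22 peaks (right) in windows of 550 kb on chromosomes 1 to 19 and X, with the number of windows on a log scale. Vertical lines mark the Mycl window (70 and 23 peaks) and the Myc window (10 and 5 peaks), and the Mycl line lies right of every other KP1 window.

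The Mycl cluster had a sharp low edge in both lines. Its first KP1 peak began at 122511875 and its first KP22 peak at 122511987, 240.8 kb and 168.3 kb after the previous peak of each list. The window of equal length on the low side held 2 KP1 peaks and 1 KP22 peak. That on the high side held 7 and 2. In KP1 the high edge was less clear, since the next peak began at 122950123, only 2.39 kb past the last peak inside the window. In KP22 the next peak lay 168.0 kb further on. From first to last peak the cluster spanned 435.9 kb in KP1 and 418.0 kb in KP22.

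Within the Mycl window, peaks were densest in the middle. The 100 kb from 122600000 to 122699999 held 26 KP1 peaks and 10 KP22 peaks, 37.1% and 43.5% of the peaks in the window. From 122500000 to 122799999 there were 57 KP1 peaks with a median width of 253 bases and 18 KP22 peaks with a median width of 477 bases. All 15 KP1 peaks of at least 500 bases lay in that stretch, as did 9 of the 10 such KP22 peaks. All 18 KP22 peaks there overlapped a KP1 peak. The last 150 kb differed in kind: its 13 KP1 peaks had a median width of 164 bases, and 1 of them overlapped 1 of its 5 KP22 peaks. Peaks lay close together, with a median gap of 3215 bases between neighbours in KP1 and 11702.5 bases in KP22. In KP1, 20 of the 69 gaps were under 1 kb.

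Wide peaks were frequent around Mycl, and made up the larger share of the peaks in KP22. Of the 70 KP1 peaks there, 15 (21.4%, 12.5 to 32.9) had at least 500 bases, compared with 6.77% in the whole KP1 list. Of the 23 KP22 peaks, 10 (43.5%, 23.2 to 65.5) had at least 500 bases, compared with 3.46% in the whole KP22 list. The Mycl window thus held 0.889% of all wide KP1 peaks and 2.86% of all wide KP22 peaks. The ratio of these shares was 0.311 (0.131 to 0.775), whereas the ratio for peaks of any width was 1.24. KP1 had more wide peaks here by count, and the ratio is low because its whole list held 1687 against 350 in KP22. With neighbouring peaks from 1 list per line, the interval is no test of a difference between the lines. The median KP1 peak around Mycl had 228.5 bases (quartiles 177.75 and 418.25), close to the 232 bases of the whole list. The median KP22 peak there had 413 bases (quartiles 236.5 and 789), against 227 bases in the whole list. KP1 thus combined wide peaks with many narrow ones, of which 12 had at most 160 bases (17.1%, against 15.7% of all KP1 peaks). The KP1 peaks around Mycl covered 25045 bases, or 4.55% of the window, and the KP22 peaks covered 11743 bases, or 2.14%. The covered length was 2.13 times larger in KP1 than in KP22, against 2.63 times over the whole lists. The window was not unique in these traits. Of the 4696 other windows of the same length, 2 had more wide KP1 peaks (up to 26) and 1 had more wide KP22 peaks (11). More covered bases were also found in 2 of them for KP1 and 1 for KP22. Chromosome 4 as a whole held 235 of the 1687 wide KP1 peaks and 75 of the 350 wide KP22 peaks.

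**Figure D3:**
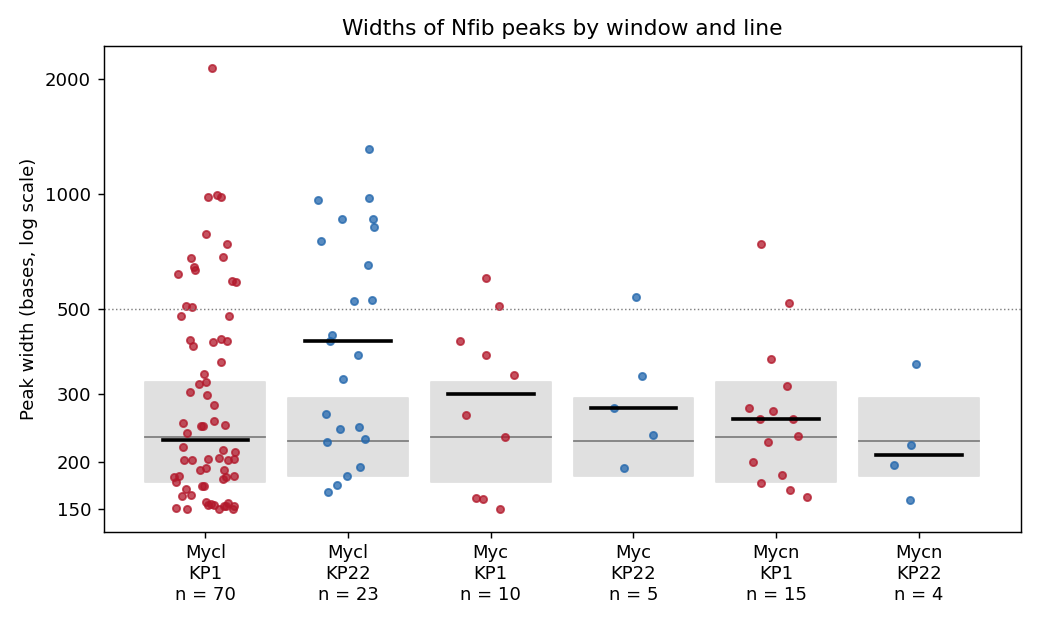
Each point is the width of a peak in bases (log scale), by window and line. Black bars are the medians in the window, and grey bands with a line are the quartiles and median of the whole list of that line. The KP22 median around Mycl (413 bases) lies above its grey band, and the dotted line marks 500 bases.

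The widest KP1 peak around Mycl lay on chromosome 4 from 122672620 to 122674757 and had 2138 bases. It ranked second by width in the KP1 list and first on chromosome 4. Peaks of at least 1000 bases made up 0.277% of the KP1 list, and this was the only one of the 70. A very wide peak here was known when the window was set, so its rank is no independent result. KP22 had a pair of separate peaks at the same place, both narrower than the KP1 peak. The first, from 122672590 to 122673017, had 428 bases, and the second, from 122674353 to 122674581, had 229 bases. They left 1335 bases between them that were a peak in KP1 alone, and they covered 29.3% of the KP1 peak. This was the only KP1 peak in the 3 windows with 2 partners in KP22, and the whole KP1 list had 56 with 2 or more. Next to it on the low side, KP1 had a peak of 685 bases from 122671416 to 122672100, which overlapped a KP22 peak of 380 bases from 122671667 to 122672046.

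The widest KP22 peak around Mycl lay 52.7 kb further on, from 122727467 to 122728783, and had 1317 bases. It ranked second by width in the KP22 list, level with another chromosome 4 peak, and was the only one of the 23 with at least 1000 bases (0.0692% of the KP22 list). This peak too was known beforehand, so its rank is no independent result. The KP1 peak at this place, from 122727886 to 122728627, had 742 bases and lay wholly inside it. The KP22 peak reached 419 bases beyond it on the low side and 156 bases on the high side.

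Sites called in the low line around Mycl were mostly sites of the high line as well. Of the 23 KP22 peaks, 19 (82.6%, 61.2 to 95.05) shared at least 1 base with a KP1 peak, against 66.1% of all KP22 peaks, a share inside the interval. In the other direction, 19 of the 70 KP1 peaks (27.1%, 17.2 to 39.1) were shared, against 26.8% of all KP1 peaks. Around Mycl, wide peaks were shared more often than narrower ones. A wider peak meets the rule of at least 1 common base more easily, so this is a description and not a test. Of the 15 wide KP1 peaks around Mycl, 11 were shared, and of the 55 narrower ones, 8 were. Over the whole KP1 list 39.0% of wide and 25.9% of narrower peaks were shared. In KP22, 9 of the 10 wide peaks around Mycl and 10 of the 13 narrower ones were shared, against 93.7% and 65.1% over its whole list. Shared KP1 peaks around Mycl had a median of 594 bases and unshared ones 202 bases, and for KP22 these medians were 428 and 184 bases. Of such medians in the Myc and Mycn windows, only those of KP1 around Mycn went the other way, with 234 and 258 bases.

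The paired peaks around Mycl had no common direction of width. Of the 16 pairs in which each peak had a single partner, the KP22 peak was wider in 7 (43.8%), against 47.7% of 6514 such pairs in the whole lists. The median ratio of KP22 to KP1 width was 0.942 in these pairs and 0.980 in all. At 122649072 to 122649894 KP22 had 823 bases, around a KP1 peak of 680 bases. At 122632351 to 122633335 KP1 had 985 bases and its KP22 partner, from 122632466 to 122633432, had 967, so that the lines nearly coincided. At 122563024 to 122564008 KP1 had 985 bases against 328 in KP22. In 1 place KP22 had a single peak of 755 bases, from 122748570 to 122749324, that spanned a pair of KP1 peaks of 157 and 365 bases. The centres of paired peaks lay a median of 91.25 bases apart around Mycl and 31.5 bases apart over the whole lists. The Mycl pairs were also wider, with medians of 620.5 bases in KP1 and 469.5 in KP22, against 258 and 249 in all pairs. Centres of wider peaks can differ more, and a shift of the sites themselves was not tested.

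**Figure D4:**
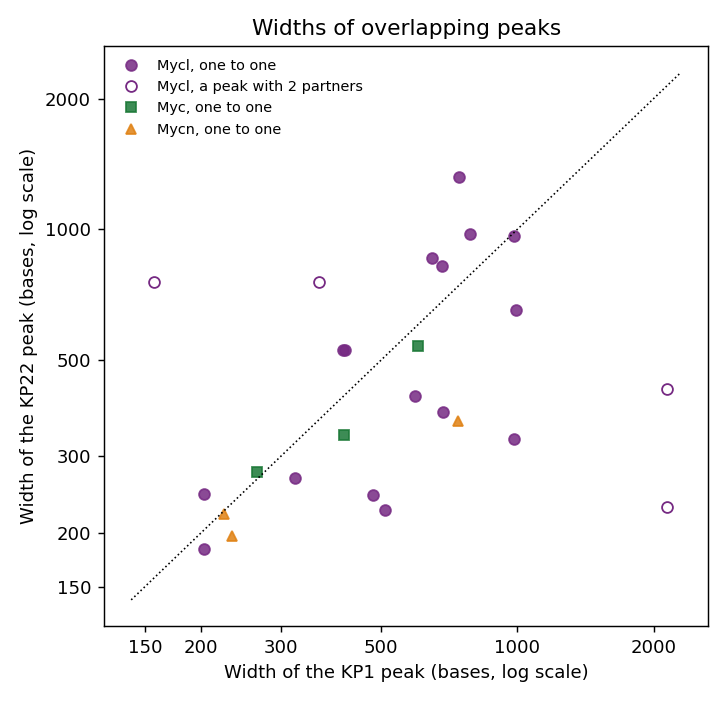
Each point is a pair of overlapping peaks, with the KP1 width on the horizontal and the KP22 width on the vertical axis (bases, log scales), and equal widths on the dotted line. Open points are pairs of a peak with 2 partners, among them the KP1 peak of 2138 bases at the right edge. The 16 filled Mycl points lie on both sides of the line, 7 of them above it.

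Peaks found in a single line around Mycl were 51 in KP1 (72.9%, against 73.2% of all KP1 peaks) and 4 in KP22 (17.4%, against 33.9% of all KP22 peaks). The widest of the 51 lay from 122568130 to 122568762, with 633 bases, and 6 of the 51 lay within 1 kb of a KP22 peak. In KP22, 3 of the 4 had 167 to 194 bases. The fourth, from 122929157 to 122930017, had 861 bases and was the widest of all 3434 KP22 peaks that overlapped no KP1 peak. Of those 3434 peaks, 22 had at least 500 bases. It lay near the high end of the window, outside the stretch from 122500000 to 122799999 that held the other 9 wide KP22 peaks.

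The Myc window held a small group of sites common to both lines, on chromosome 15. KP1 had 10 peaks, with a median width of 300.5 bases (150 to 604), and KP22 had 5, with a median of 276 bases (193 to 539). The widest peak of both lines was the same site: KP1 had 604 bases from 61938038 to 61938641, and the KP22 peak of 539 bases, from 61938101 to 61938639, lay wholly inside it. A second shared site followed at 61939615 to 61939879 in KP1 (265 bases) and 61939553 to 61939828 in KP22 (276 bases). The third lay at 61704927 to 61705340 in KP1 (414 bases) and 61704949 to 61705283 in KP22 (335 bases). These 3 sites were 30% of the KP1 peaks (6.67 to 65.2) and 60% of the KP22 peaks (14.7 to 94.7), close to the shares of the whole lists. The widest peak of KP1 alone had 509 bases and ran from 61943845 to 61944353. In all, 4 of the 10 KP1 peaks and 2 of the 5 KP22 peaks began between 61900000 and 61949999. KP22 had 2 peaks of its own, of 235 and 193 bases, the wider from 61770955 to 61771189, and the nearest KP1 peak lay 65.6 kb or more away. The flanking windows held 4 and 7 KP1 peaks and 1 and 0 KP22 peaks.

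The Mycn window lay on chromosome 12. KP1 had 15 peaks there, with a median width of 258 bases (162 to 740), and KP22 had 4, with a median of 208.5 bases (159 to 361). Of these, 3 KP1 peaks (20.0%, 4.33 to 48.1) and 3 KP22 peaks (75%, 19.4 to 99.4) overlapped each other, and the whole-list shares of 26.8% and 66.1% lie inside these intervals. The widest peak of both lines was again the same site: KP1 had 740 bases from 12816873 to 12817612, and KP22 had 361 bases from 12817001 to 12817361, wholly inside it. The other shared sites were of similar width in both lines, with 225 and 221 bases at 13090442 to 13090666 in KP1 and 13090463 to 13090683 in KP22. At 13136604 to 13136837 KP1 had 234 bases, and the KP22 peak from 13136651 to 13136846 had 196. The KP1 peak was wider in all 3 pairs, and in 51.9% of such pairs over the whole lists, so 3 pairs are too few to tell these apart. The widest peak of KP1 alone had 520 bases, from 12911245 to 12911764. The only peak of KP22 alone, from 12746148 to 12746306, had 159 bases, the narrowest width of its list. KP22 had 0 of 4 peaks with at least 500 bases, for which the exact interval reaches up to 60.2%, so no difference in wide peaks was detectable here. The flanking windows held 13 and 3 KP1 peaks and 3 and 1 KP22 peaks.

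Across the family, the widest peak of each line fell on a shared site in all 3 windows, but only around Mycl were these different sites in KP1 and KP22. The widest KP1 peaks of the Mycn and Myc windows ranked 339 and 801 by width in the KP1 list, against 2 for Mycl. For KP22 the ranks were 1271 for Mycn, 249 for Myc and 2 for Mycl. The very wide Mycl peaks were known when the windows were set, so this contrast in part restates that choice. Covered length followed the order of these ranks in both lines. The widest peak is part of the covered length, so these orders are not independent. In KP1 it was 45.5 bases per kb around Mycl, 8.72 around Mycn and 5.84 around Myc. In KP22 it was 21.4 bases per kb around Mycl, 2.87 around Myc and 1.87 around Mycn, so that Myc and Mycn stood in the opposite order to KP1. Reads of the input libraries at these windows were not analysed here, and a role of copy number or sequencing depth in the number and width of peaks was not tested.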

How the data were processed

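Nfib pulldowns and inputs of the mouse lines 16T, KP1 and KP22 were sequenced, with 12 libraries in all. The submitters' processing notes name Bowtie2, MACS2, DESeq2 and DESeq and the build mm9, without versions or roles. Whether libraries were pooled for peak calling, the control and the threshold are not given in the sources used here. Both deposited lists hold a start and an end in bases, beside a blank score and a strand that is always +, with starts counted from 0 and printed from 1. The authors' merged table was not used, since its regions carry no position.

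Peaks were assigned by their start in the list, and an overlap needed at least 1 common base. Wide peaks have at least 500 bases. Computations used Python 3.11.15, pandas 2.3.3, numpy 2.4.6 and scipy 1.17.1, with plots in matplotlib 3.10.9. Overlaps and intervals were tested on simulated data. Named peaks are the widest of each line in each window, those of at least 1000 bases, their partners and the widest found in a single line; other pairs and sites named were chosen after seeing their values. The windows were chosen with earlier results of these data known. Motifs under peaks and the planned list of Max partners were not run, as no mm9 genome or annotation was used here.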

Additional observations from a re-analysis of the deposited data

How the results depend on the processing

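Of 68 recomputed values, 53 stayed within counting error, or within 1.5 times for counts, and 15 moved. Under a width of at least 1000 bases, the wide peaks became 1 in KP1 and 1 in KP22 around Mycl, and 0 in KP1 and 0 in KP22 around Myc and 0 in KP1 around Mycn, since fewer peaks can pass. The central 50% of each window, which is shorter by construction, held 15 KP22 peaks around Mycl, 6 KP1 peaks around Myc, and 4 KP1 and 0 KP22 peaks around Mycn, so no ratio of shares could be had for Mycn there. When an overlap had to span 50% of both peaks, 60.9% of the KP22 peaks around Mycl were shared in place of 82.6%. Comparison windows that begin at any peak, chosen after seeing the data, lie in dense places by construction: the share with at least as many peaks rose to 0.327% for KP22 around Mycl, to 47.7% (KP1) and 37.2% (KP22) around Myc, and to 19.6% (KP1) and 45.5% (KP22) around Mycn. A grid moved by 50% of a window, also added after seeing the data, moved none of the 6 shares beyond counting error.

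No paired analysis was possible because the lists hold no value per library, and leaving out each replicate was not run for the same reason. The 4 to 15 peaks per line around Myc and Mycn limit every share there.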
